A study of Mus musculus with 6 samples.

Results

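The 8 genes described here start or restrain plasmin formation and blood coagulation at the cell surface: Plau, Plat, Plaur, Serpine2, Serpinb2, F3, Thbd and Procr. They were found by matching the RefSeq accession of each non-control array probe to a gene, which gave 9 probes for 8 of 8 genes, out of 56605 probes and 23462 genes with a probe. Plau had 2 probes and the others 1 each. Gene expression had been measured on 6 one-colour arrays, 1 per sample, in isolated pancreatic acinar cells of C57BL/6 mice. All mice carried Ptf1aCre, which drives Cre recombinase from Ptf1a, a pancreatic lineage gene, together with a lox-stop-lox oncogenic allele that Cre switches on. Mice with these 2 elements alone are called KC (n = 3), and mice that also carried Setdb1flox/flox, with loxP sites in both copies of the gene for a histone H3 lysine 9 methyltransferase, are called KCS (n = 3). The labels name no treatment, time or age, and whether the 3 samples of a group are 3 animals is not stated there, so p-values measure the spread between these samples, which may be technical in part. Deletion of Setdb1 was possible only in cells that had made Cre, and other cells carried over from the tissue keep the gene.

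Plasmin is a serine protease that dissolves fibrin and cleaves matrix proteins. It is cut from plasminogen by urokinase (Plau), which works mostly on cell surfaces where it is held by the receptor Plaur, or by tissue-type activator (Plat), which works best on fibrin. The serpins Serpine2 (protease nexin) and Serpinb2 (a plasminogen activator inhibitor of macrophages and keratinocytes) inhibit these activators, and Serpine2 inhibits thrombin as well. Coagulation starts when tissue factor (F3) binds factor VII, and it is restrained by thrombomodulin (Thbd), which turns thrombin into an activator of protein C, and by the endothelial protein C receptor (Procr).

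The arrays of the 2 groups differed as a whole. Between 26551 and 27235 probes were well above background on KC arrays and between 35365 and 35921 on KCS arrays. The 75th percentile of the signal, which was set to 0 on the log2 scale of each array, lay at 61.2 to 68.6 scanner units in KC and at 347 to 423 in KCS. Every log2 value below is therefore relative to the array's own 75th percentile, unless scanner units are named. The median log2 fold change of all 27103 rows tested, 1 per gene or unnamed probe, was -0.19 on that scale, 0.16 after median centring and 2.70 when arrays were scaled to their spike-in controls, with 7016, 9150 and 23633 rows called higher in KCS. Calls mean an adjusted p below 0.05 in limma's moderated test. The probe for Setdb1 did not differ by that test (log2 change 0.33 ± 0.24 (SE), adjusted p = 0.27), but its place relative to the loxP sites is not known here, so it checks nothing about the deletion. Of 10 acinar markers 10 were called lower, as were 34.4% of all rows. Their summed log2 signal was 14.26 to 14.48 in KC and 1.82, 3.83 and 10.15 in KCS replicates 1, 2 and 3. The labelled cell type thus showed its defining markers on all KC arrays, and on KCS arrays at far lower and unequal signal.

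Of the 8 genes, 7 were higher in KCS than in KC. On the log2 scale Plaur changed by 6.36, F3 by 4.72, Serpine2 by 4.51 and Plat by 4.42, and Plau, Procr and Thbd by 1.71, 1.54 and 1.15. The order within the first 4 depends on the background correction and scaling: with normexp Serpine2 (5.12) stood above Plaur (4.70), and with quantile normalization it stood above F3 (5.36 and 4.86). Serpinb2 passed the test too, but its probe did not stand out from background on KC arrays, and its values carry no measured fold. Thus 8 of 8 were called higher, where 25.9% of all rows were called higher, 34.4% lower and 60.3% in either direction. For 8 of 8 the lowest KCS sample lay above the highest KC sample, as it did in 29.8% of all rows. Of the 8, 6 were well above background on all 6 arrays. Plaur was so on 2 of 3 KC arrays, and Serpinb2 entered the test only through its KCS arrays, so that its call could hardly have gone the other way. The median change of the other 7 genes was 4.42, beside -0.19 for all rows.

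**Figure D1:**
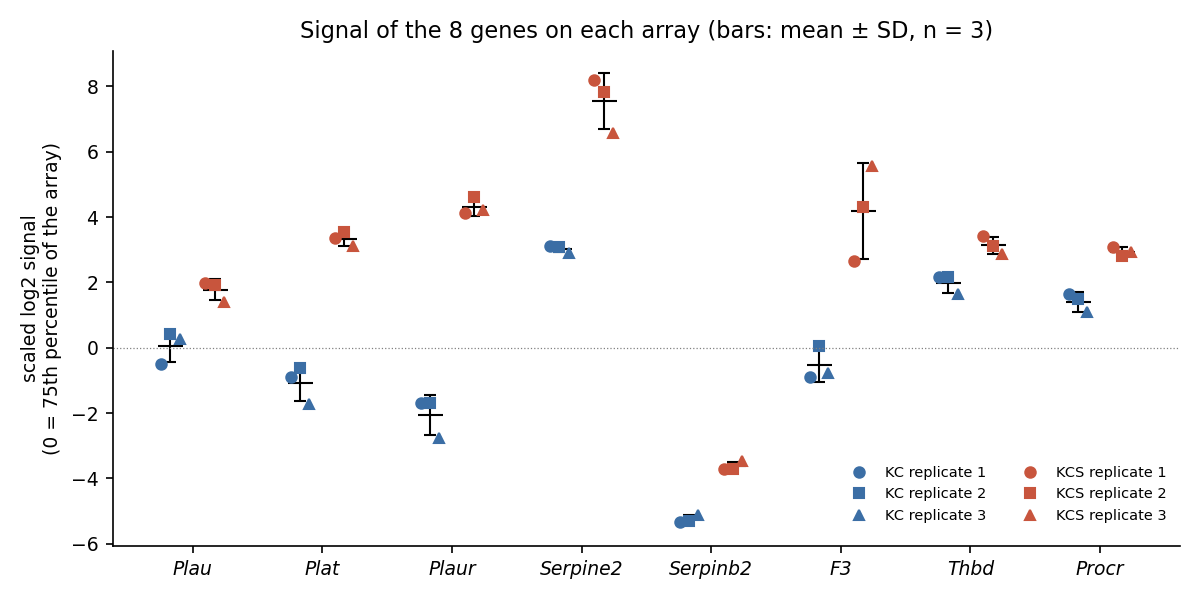
Scaled log2 signal (0 is the 75th percentile of the array) of the 8 genes, with KC samples in blue and KCS samples in red; each symbol is 1 array, and bars give the mean ± SD (n = 3). The KCS symbols of each gene lie above its KC symbols, and F3 and Serpine2 show the widest KCS bars; levels of different genes are not comparable, because probes differ in brightness.

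The DNA before the start sites of the 8 genes was searched for short motifs. RefSeq windows on GRCm38.p6 were found for 5 of the 8 genes (F3, Plaur, Procr, Serpine2 and Serpinb2, the last with 2 start sites), and the 250 bases before the start are described. An AP-1 motif, TGANTCA, which reads the same on both strands, occurred in 4 of the 5 genes and in 6.75% of all 32851 such windows of the same length. The GC box bound by SP1, GGGCGG on either strand, occurred in 3 of the 5 and in 32.7% of windows. Both are shown in capitals below, on the strand of the gene from 5′ to 3′, for the 4 genes with a measured change. The F3 window is chr3:121723287-121723536 (plus strand), that of Plaur is chr7:24462233-24462482 (plus), that of Procr is chr2:155750967-155751216 (plus) and that of Serpine2 is chr1:79858666-79858915 (minus).
F3: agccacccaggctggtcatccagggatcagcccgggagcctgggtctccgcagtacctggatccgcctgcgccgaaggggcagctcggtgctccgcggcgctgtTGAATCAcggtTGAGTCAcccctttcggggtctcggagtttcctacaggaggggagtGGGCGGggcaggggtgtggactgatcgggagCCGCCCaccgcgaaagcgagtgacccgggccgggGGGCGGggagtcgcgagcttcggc
Plaur: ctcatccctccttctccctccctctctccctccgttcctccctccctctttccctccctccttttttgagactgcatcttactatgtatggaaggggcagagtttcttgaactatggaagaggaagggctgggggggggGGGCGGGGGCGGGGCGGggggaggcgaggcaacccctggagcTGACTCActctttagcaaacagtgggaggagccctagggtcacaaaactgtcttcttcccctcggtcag
Procr: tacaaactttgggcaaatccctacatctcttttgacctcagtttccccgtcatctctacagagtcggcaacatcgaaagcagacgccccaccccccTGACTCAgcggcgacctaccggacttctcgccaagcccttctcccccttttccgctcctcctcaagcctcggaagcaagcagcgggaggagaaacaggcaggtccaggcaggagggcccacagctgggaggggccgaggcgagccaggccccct
Serpine2: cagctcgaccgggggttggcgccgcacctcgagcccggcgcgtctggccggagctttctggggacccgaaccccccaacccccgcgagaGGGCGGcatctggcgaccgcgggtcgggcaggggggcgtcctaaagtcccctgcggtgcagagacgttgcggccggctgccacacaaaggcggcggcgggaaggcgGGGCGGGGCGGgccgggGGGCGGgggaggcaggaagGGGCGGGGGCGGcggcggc
The F3 window held 2 AP-1 matches, starting 146 and 135 bases before the start site with 4 bases between them, and 3 GC boxes, 1 of them on the opposite strand. Plaur had 1 AP-1 match at 69 bases and 3 GC boxes that lie side by side, with no base between the first pair and the last pair overlapping by 1. Procr held 1 AP-1 match at 154 bases and no GC box, and Serpine2 held 6 GC boxes and no AP-1 match. An EGR motif, GCGNGGGCG, overlapped the GC boxes of Plaur and Serpine2 (109 and 17 bases before the start), against 4.7% of all windows. The windows of Serpinb2 held the same AP-1 match, at 94 bases before the first start site and 181 before the other, and TATAAA at 29 and 116 bases, a motif of 12.4% of windows. The TEAD motif GGAATG (12.6% of windows) and an NF-kappaB motif (7.25%) had no match in these windows, which says only that those letters are not there. The windows of F3 and Serpine2 consist of 70.0% and 78.8% G and C, against a median of 52.4% over all windows, and GC boxes are more likely in such sequence. A match is a description of the letters, and no binding was measured.

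Both plasminogen activators were higher in KCS, and Plat changed by more than Plau. Plat, the activator that works on fibrin, gave -0.90, -0.61 and -1.71 on the 3 KC arrays and 3.37, 3.54 and 3.11 on the 3 KCS arrays. The KCS samples were tightly grouped, and the lowest of them lay far above the highest KC sample. In scanner units its probe read 18.7 to 45.1 in KC and 3004 to 4935 in KCS. The change was 4.42 ± 0.32 (SE) on the log2 scale, or 21.4-fold (95% interval 3.65 to 5.18 on the log2 scale, limma adjusted p = 1.49e-04), a rise that 1.55% of all rows matched or passed. Plau, encoding urokinase, gave -0.50, 0.41 and 0.27 in KC and 1.99, 1.92 and 1.40 in KCS, again without overlap. Its change was 1.71 ± 0.31, or 3.28-fold (adjusted p = 0.00344), and 12.8% of rows rose as much. The arrays came from 2 slides, slide 1 with replicate 1 of each group and slide 2 with the rest. Plau differed by 2.49 on slide 1 and by 1.32 on slide 2. The second Plau probe was below that limit on each KC array, so it gave only a bound of at least 1.04-fold higher (adjusted p = 9.83e-04), a statement far weaker than that of the brighter probe.

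The urokinase receptor went from near background to a bright signal. Plaur, a membrane-anchored protein that holds urokinase at the cell surface, gave -1.70, -1.69 and -2.75 in KC and 4.11, 4.62 and 4.21 in KCS. The third KC sample, the lowest, was the array on which the probe was not well above background (9.10 scanner units, against 20.5 and 21.2 on the other KC arrays and 6399 to 10395 in KCS). The fitted change was 6.36 ± 0.34, or 81.9-fold (95% interval 5.54 to 7.17 on the log2 scale, limma adjusted p = 8.74e-05), and it rests on 2 measured KC arrays. Only 0.273% of rows rose as much. On slide 1 it was 5.80 and on slide 2 it was 6.63, and the lowest value over the tested ways of scaling was 4.70, with normexp background correction.

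The inhibitor Serpine2 rose from an already measurable signal. It gave 3.11, 3.07 and 2.91 in KC, the narrowest of the KC groups, and 8.20, 7.84 and 6.57 in KCS. In scanner units these were 459 to 575 and 32964 to 115311. The change was 4.51 ± 0.42, or 22.8-fold (limma adjusted p = 3.04e-04), and 1.42% of rows rose as much. The KCS samples were far less alike than the KC samples, with an SD of 0.86 against 0.11 (n = 3 each). Serpinb2 gave -5.33, -5.30 and -5.11 in KC and -3.70, -3.72 and -3.47 in KCS, all at the bottom of the scale. Its probe read 1.66 to 1.77 scanner units in KC and 30.3 to 32.2 in KCS. The fit gave 1.62 ± 0.17 (adjusted p = 4.69e-04), but the mean KCS signal lay under the mean of the lowest signals counted as above background on KC arrays, so no fold can be given. With normexp background correction the value was -1.15 (adjusted p = 5.44e-05), of the opposite sign, so these arrays do not settle a direction for Serpinb2.

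Tissue factor rose in KCS with the widest spread of the 8 genes. F3, the membrane receptor that starts coagulation, gave -0.91, 0.04 and -0.76 in KC and 2.65, 4.31 and 5.56 in KCS replicates 1, 2 and 3. The groups stood apart, while the KCS samples differed among themselves by 7.52-fold from the lowest to the highest (2467, 8417 and 16398 scanner units). The change was 4.72 ± 0.72, or 26.3-fold (95% interval 2.99 to 6.45 on the log2 scale, limma adjusted p = 0.0018). Slide 1 gave 3.56 and slide 2 gave 5.30, and the change stayed between 4.02 and 5.48 when each sample was left out in turn.

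The anticoagulant receptors rose by much less. Thbd, the thrombin receptor thrombomodulin, gave 2.15, 2.15 and 1.63 in KC and 3.41, 3.1 and 2.88 in KCS. Its change was 1.15 ± 0.24, or 2.23-fold (adjusted p = 0.006), the smallest of the 7 measured genes, and 19.3% of all rows rose as much. Procr, which presents protein C to thrombomodulin-bound thrombin, gave 1.65, 1.48 and 1.08 in KC and 3.08, 2.80 and 2.94 in KCS. Its change was 1.54 ± 0.21, or 2.90-fold (adjusted p = 0.00123), with 14.5% of rows rising as much. For both genes the change was alike on the 2 slides, at 1.26 and 1.10 for Thbd and at 1.43 and 1.59 for Procr.

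Scaling moved the size of these changes but, apart from Serpinb2, not their sign. Scaled to the spike-in controls, the changes ran from 4.05 (Thbd) to 9.25 (Plaur), where the median row stood at 2.70. After median centring they ran from 1.51 (Thbd) to 6.71 (Plaur), and after quantile normalization from 1.13 to 6.57 for the same genes. With the slide as a block, adjusted p was at most 0.00513 over the 7 genes apart from Serpinb2 (Plau). On slide 2 alone (2 samples a group) it was at most 0.0289 (Thbd), and with any 1 sample left out at most 0.0234 (Thbd).

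**Figure D2:**
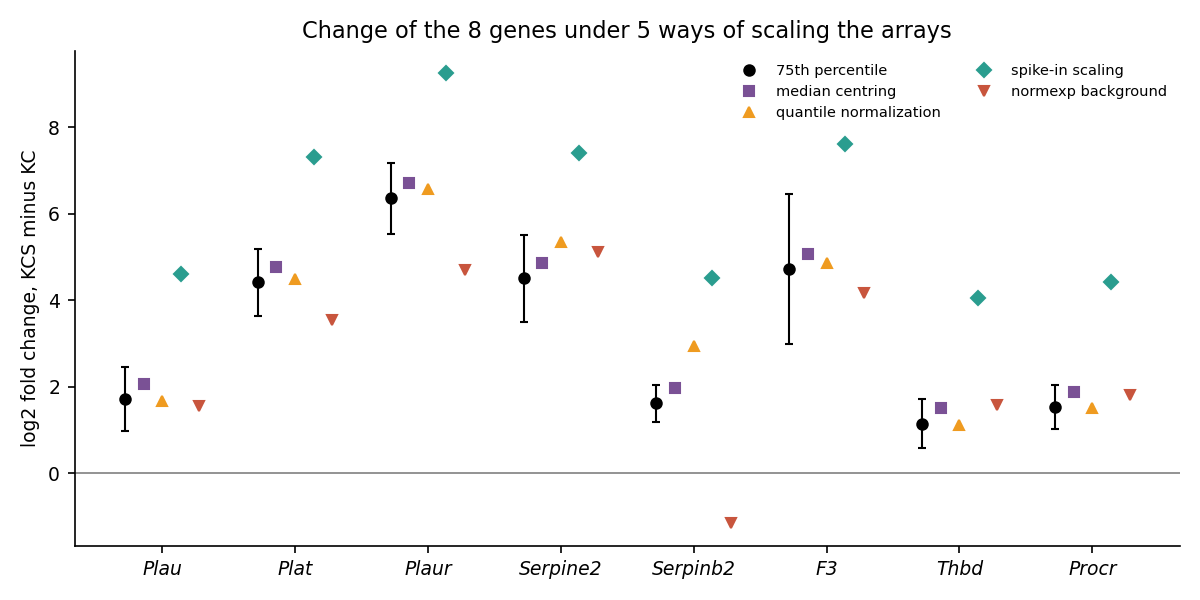
Log2 fold change (KCS minus KC) of the 8 genes under the main scaling to the 75th percentile (black, with its 95% interval) and under 4 other ways of scaling or background correction. All symbols lie above 0 except that of Serpinb2 with normexp background, at -1.15, and spike-in scaling lies highest for each gene.

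Differences between 2 genes on the same array do not move when the array is shifted by a constant, as in scaling to the 75th percentile, the median or the spike-in controls. They do move with quantile normalization and normexp. Only their change between groups can be read, since probes differ in brightness. Plau minus Plat was 0.40, 1.01 and 1.98 in KC and -1.38, -1.63 and -1.71 in KCS, so that the urokinase signal fell by 2.70 ± 0.47 (SE) relative to that of the tissue-type activator. Plau also fell by 2.80 ± 0.45 relative to Serpine2, from -3.61, -2.66 and -2.64 to -6.21, -5.92 and -5.17. Plaur minus Plau rose by 4.64 ± 0.57, from -1.19, -2.10 and -3.01 to 2.12, 2.70 and 2.81, so that the receptor's signal rose relative to that of its ligand. Its lowest KC value, -3.01, comes from the array on which Plaur was not above background, and the rise was 3.14 with normexp. F3 minus Thbd was -3.06, -2.11 and -2.39 in KC and -0.75, 1.21 and 2.68 in KCS, a rise of 3.56 ± 1.03 with most of the spread from F3. Thbd minus Procr moved least, by -0.38 ± 0.14, from 0.50, 0.67 and 0.55 to 0.33, 0.31 and -0.06. With quantile normalization Plau minus Serpine2 changed by -3.68, and none of the 5 changes turned its sign with quantile normalization or normexp. None of the 5 differences overlapped between groups, and each gave a two-sided exact permutation p of 0.1 (0.1 after Benjamini-Hochberg adjustment over the 5), the smallest that 3 against 3 samples allow. How often the difference between any 2 genes of the array fails to overlap was not computed. The lack of overlap is therefore not shown to be particular to these pairs.

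**Figure D3:**
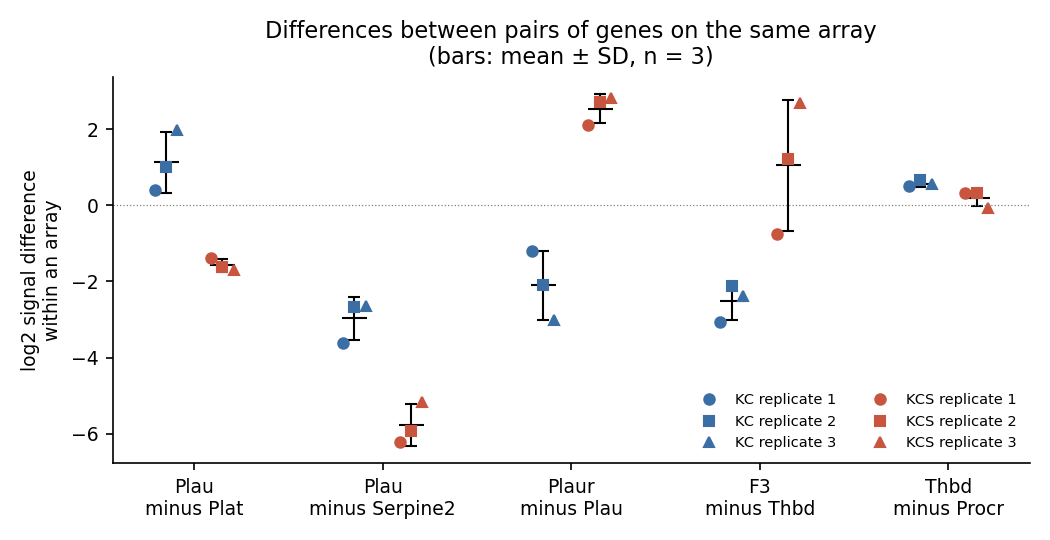
Log2 signal differences between pairs of genes on the same array, 1 symbol per array (KC blue, KCS red), with the mean ± SD (n = 3). Plaur minus Plau and F3 minus Thbd lie higher in KCS, and Plau minus Plat and Plau minus Serpine2 lie lower, with no overlap in any pair.

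The KCS samples disagreed on 2 genes in opposite ways. F3 was highest in KCS replicate 3 and lowest in replicate 1, spanning 2.91 on the log2 scale, and Serpine2 was highest in replicate 1 and lowest in replicate 3, spanning 1.63. The other 6 genes spanned 0.25 to 0.59 over the same arrays. In KC the spans ran from 0.20 (Serpine2) to 1.11 (Plat), so F3 and Serpine2 varied more within KCS than any of the 8 did within KC. KCS replicate 3 was also the sample with the highest summed acinar markers (10.15, against 1.82 and 3.83) and ductal markers (8.48, against 8.10 and 8.18) and mesothelial markers (4.45, against 4.12 and 3.78). It had the lowest endothelial markers (5.86, against 6.86 and 6.64), macrophage markers (8.66, against 9.05 and 8.85) and fibroblast markers (10.15, against 10.49 and 10.18). The part of these cell types in the spread was not tested.

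**Figure D4:**
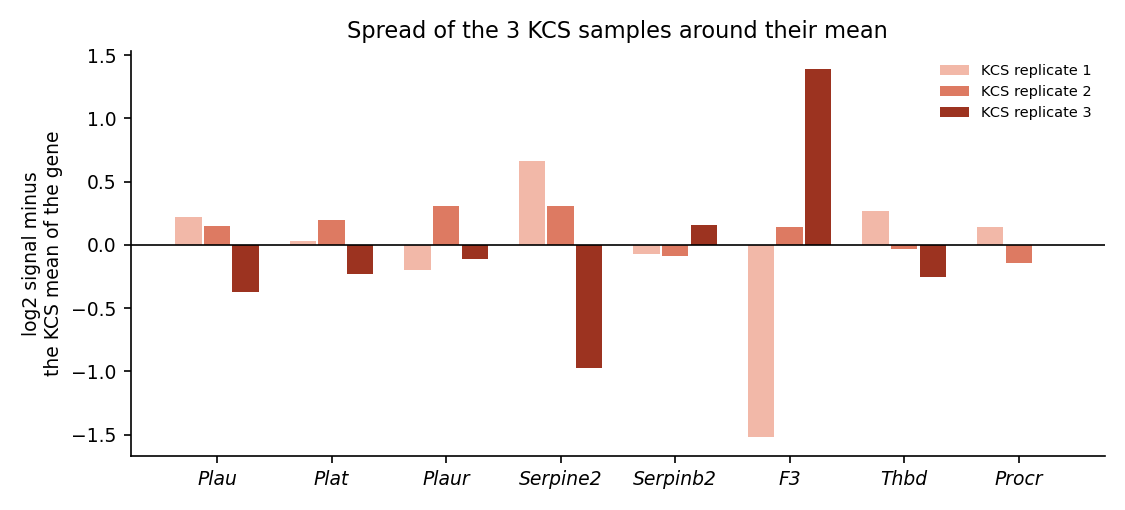
Log2 signal of each KCS sample minus the KCS mean of that gene, 1 bar per sample. F3 runs from -1.52 in replicate 1 to 1.39 in replicate 3, Serpine2 from 0.66 to -0.97, and the other genes stay closer to 0.

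Markers of several other cell types rose along with the 7 measured genes. The counts of markers stand beside 25.9% of all rows called higher and 34.4% called lower. In these bulk samples fewer cells of a type and less RNA per cell cannot be told apart. Among macrophage markers 9 of 10 rose and none fell (median 3.89), and their summed log2 signal went from between 4.83 and 5.50 in KC to between 8.66 and 9.05 in KCS; C1qc, a complement gene of macrophages, rose by 4.01. All 10 of 10 fibroblast and stellate cell markers were called higher (median 3.11), with summed signals of 7.67 to 8.08 and of 10.15 to 10.49. The collagen gene Col1a2, the brightest, rose by 3.12. Dcn, the next brightest, passed narrowly (0.79 ± 0.28 (SE), limma adjusted p = 0.0485) with overlapping groups. Its call was lost with slide as a block (adjusted p = 0.0592). Endothelial markers, of the cells in which Thbd and Procr are best known, rose in 8 of 10 (median 1.06), with sums of 5.43 to 5.65 in KC and of 5.86 to 6.86 in KCS. Of these 8, Tek, called higher at 0.88, stood at -0.14 with normexp. Egfl7, the brightest endothelial marker, was not called (0.41 ± 0.23, adjusted p = 0.172). Mesothelial markers rose in 2 of 6, near the share of all rows (sums 1.25 to 2.63 against 3.78 to 4.45). Ductal markers rose in 4 of 10, with 2 lower (sums 5.89 to 6.31 against 8.10 to 8.48). The 2 lower ones, Muc1 and Onecut1, stood at 0.39 and 1.58 under spike-in scaling. Neutrophil markers were mixed, with 5 of 9 tested higher and 1 lower. Their sum went from 7.2 to 7.94 down to 6.61 to 6.82, but in KC it was nearly all Csf3r (7.17, 7.61 and 7.92), the brightest of them. The fall of the sum is thus mainly that of Csf3r, whose change of -1.23 became 1.66 under spike-in scaling. S100a9, the next brightest by mean signal, rose by 5.72 ± 0.42 (SE, limma adjusted p = 1.60e-04), and by 4.18 with normexp. Of 4 tested platelet markers Gp9 and Ppbp were called higher, but both were dim on each KC array and stood at -1.36 and -0.39 with normexp, so their direction is not settled. Itga2b and Gp1ba were too dim to test, and the platelet sums were 1.45 to 2.35 in KC and 2.61 to 3.71 in KCS. Each macrophage, fibroblast and endothelial marker listed was well above background on all 6 arrays. The part of these cells in the rise of the 7 genes was not tested.

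Around the activators, other genes of plasmin formation split in both directions. Of 20 genes in this list 17 could be tested, 9 rose and 5 fell (median 1.61), where 25.9% of all rows rose and 34.4% fell. Where signal above background was required on all arrays, 7 rose and 3 fell. The plasminogen-binding pair Anxa2 and S100a10 rose by 3.55 ± 0.29 and 2.60 ± 0.28 (SE; limma adjusted p = 2.16e-04 and 5.07e-04), and Thbs1, a matrix glycoprotein, rose by 4.14 ± 0.24 (adjusted p = 9.78e-05). Vtn, encoding vitronectin, an adhesive plasma and matrix protein that Plaur also binds, went the other way, from 6.29, 6.20 and 5.71 to -0.71, -2.25 and -0.53. It fell by 7.23 ± 0.48 (adjusted p = 1.24e-04), and by 4.33 under spike-in scaling. Plg, encoding plasminogen itself, was too dim to be tested, as were Serpina5 and F12. With spike-in scaling 11 of the list were higher and 2 lower, where 23633 of 27103 rows were higher and 772 lower. Bounds given as at least a fold, here and below, hold on the main scale; with normexp the fitted values of such dim genes were smaller, and 1 gene called higher in this list, Hgf, stood at -0.50.

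Proteins that work with the urokinase receptor, or clear it from the surface, were mostly higher. Of 20 genes 17 rose and 1 fell (median 2.73), against 25.9% and 34.4% of all rows, and with spike-in scaling 19 rose and 0 fell. Where signal above background was required on all arrays, 14 rose and 1 fell. The integrin chains Itga5 and Itgav, partners in adhesion, rose by 3.06 ± 0.20 and 2.99 ± 0.20 (adjusted p = 1.18e-04 and 1.28e-04). Mrc2, a collagen uptake receptor that associates with Plaur, rose by 3.71 ± 0.22 (adjusted p = 9.72e-05), and Lrp1, which internalises activators bound to serpins, by 2.74 ± 0.24 (adjusted p = 2.42e-04). Fpr1, a chemotactic receptor of myeloid cells, was dim on each KC array and at least 13.9-fold higher with Setdb1flox/flox (adjusted p = 1.10e-04), with a log2 change of 1.32 under normexp. Vldlr, named after its value was seen, was the gene called lower, at -2.51 ± 0.28, a value that became 0.39 under spike-in scaling. Cav1, called higher at 0.62, became -0.73 with normexp. With KC replicate 1 left out, 2 genes were called lower. The count was also 2 with arrays weighted by quality, with replicate or slide as a block, and on slide 2 alone. With normexp it was 3.

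Among coagulation factors, 7 of the 14 tested were called higher and 4 lower (median 1.45), against 25.9% and 34.4% of all rows. Of those called higher, F5, F7, Fgb and Fgg were dim on each KC array and entered the test only through KCS arrays. Their calls could hardly have gone the other way. Where signal above background was required on all arrays, 2 genes were higher and 4 lower. F7, the ligand of tissue factor, read -5.28, -3.56 and -3.14 in KC, below background on each array, and 2.34, 1.41 and -0.28 in KCS, at least 21.8-fold higher (limma adjusted p = 0.002; log2 change 2.08 with normexp). Its KCS samples ran opposite to those of F3, with replicate 1 the highest and replicate 3 the lowest. F10, the substrate of that complex, was called higher (adjusted p = 8.77e-04), but only 1 of 3 KC arrays was above background. Its fitted log2 change was 7.72 ± 0.98, and 4.56 with normexp. F5, the cofactor of factor X, was at least 18.4-fold higher (adjusted p = 5.03e-04; 1.68 on the log2 scale with normexp), and Fgg, a fibrinogen chain, at least 4.93-fold higher (adjusted p = 3.77e-04), a call lost with normexp (0.17, adjusted p = 0.635). Fgb, another fibrinogen chain dim on each KC array, was called higher but stood at -0.89 with normexp. F13a1, the fibrin cross-linking enzyme, changed by 0.63 ± 0.62 (adjusted p = 0.408). Fgl2, a prothrombin-cleaving membrane protein, and Mcfd2, a transport factor for factors V and VIII, were called lower at -2.03 ± 0.18 and -1.97 ± 0.19. Under spike-in scaling they stood at 0.86 and 0.93, with 13 genes of the list and 23633 of 27103 rows higher, and 0 genes of the list lower. F2, encoding prothrombin and named after its value was seen, was also called lower (-5.98 ± 1.84, adjusted p = 0.0286). It stayed below 0 under spike-in scaling (-3.08) and normexp (-3.58), but lost its call without KC replicate 2 (adjusted p = 0.0867).

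Anticoagulant genes other than Thbd and Procr rose in 5 of 10 tested cases and fell in 1 (median 1.23), against 25.9% and 34.4% of all rows. Tfpi2 and Hs3st1, among those called higher, entered the test only through KCS arrays. Where signal above background was required on all arrays, 3 genes were higher and 0 lower. Tfpi, the inhibitor of the tissue factor complex, gave -0.20, -0.81 and 0.20 in KC and 2.10, 1.88 and 1.49 in KCS, a rise of 2.09 ± 0.31 (adjusted p = 0.00164). Its relative Tfpi2, which also inhibits plasmin, was at least 5.13-fold higher (adjusted p = 1.66e-04), from below background in KC, a call also lost with normexp (0.12, adjusted p = 0.475). Pros1, encoding protein S, the cofactor of activated protein C, rose by 2.70 ± 0.26 (adjusted p = 3.41e-04), and Anxa5, which covers phospholipid surfaces, by 1.59 ± 0.19 (adjusted p = 7.28e-04). Hs3st1, which makes heparan sulfate that binds antithrombin, was at least 7.90-fold higher (adjusted p = 3.36e-04), with a log2 change of 0.58 under normexp. Proc, encoding protein C, gave 0.72, 0.43 and 0.17 in KC and -0.11, 1.59 and 2.45 in KCS, and did not pass the test (0.87 ± 0.62, adjusted p = 0.266). Slide 1 gave -0.83 and slide 2 gave 1.71, and it passed without KCS replicate 1 (1.58, adjusted p = 0.0109). The gene called lower, Serpina10, named after its value was seen, lost its call without KC replicate 2, KC replicate 3, KCS replicate 1 or KCS replicate 2, and under spike-in scaling 9 genes of this list were higher and 0 lower.

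Among protease-activated receptors and cell-surface serine proteases, the thrombin receptor F2r was higher in KCS on every scale tried. Of 13 genes tested 5 were called higher and 3 lower (median 0.37), beside 25.9% and 34.4% of all rows, and the list was not tested against all rows. F2rl1, F2rl2, F2rl3 and Prss22, all called higher, entered the test only through KCS arrays. Where signal above background was required on all arrays, 1 gene was higher and 3 were lower. F2r, the main thrombin receptor, went from -0.24, 0.13 and -0.31 to 4.32, 4.96 and 4.12, a rise of 4.60 ± 0.27 or 24.3-fold (limma adjusted p = 9.82e-05). F2rl1 and F2rl2 were below background in KC and at least 3.68-fold and 6.27-fold higher in KCS (adjusted p = 0.00225 and 1.14e-04), though with normexp they stood at -0.14 and 0.57. F2rl3, named after its value was seen, was called higher with a bound of at least 1.57-fold, and it stood at -0.85 with normexp. Prss22, encoding a secreted protease, was at least 22.4-fold higher (adjusted p = 7.09e-05; 2.11 on the log2 scale with normexp). Hpn, a membrane protease of epithelial cells, fell by 3.0 ± 0.42 (adjusted p = 0.00125), and by 0.10 under spike-in scaling, where 11 genes of the list were higher and 0 lower.

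Of the other clade B and E serpins, 6 of 13 could be tested, 3 rose and 2 fell (median 1.5), against 25.9% and 34.4% of all rows. Serpinb5, an epithelial serpin, was at least 24.1-fold higher (adjusted p = 4.15e-04; 2.41 on the log2 scale with normexp), from below background in KC. The granzyme inhibitor Serpinb9 and its relative Serpinb6b rose by 2.33 ± 0.23 and 3.6 ± 0.35 (adjusted p = 3.39e-04 and 3.50e-04). Serpinb8 was called lower at -1.41 ± 0.32 (adjusted p = 0.0094) and stood at 1.49 under spike-in scaling, where 5 genes were higher and 0 lower. Without KC replicate 1, 2 or 3, or KCS replicate 1 or 2, the count called lower was 1.

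**Figure D5:**
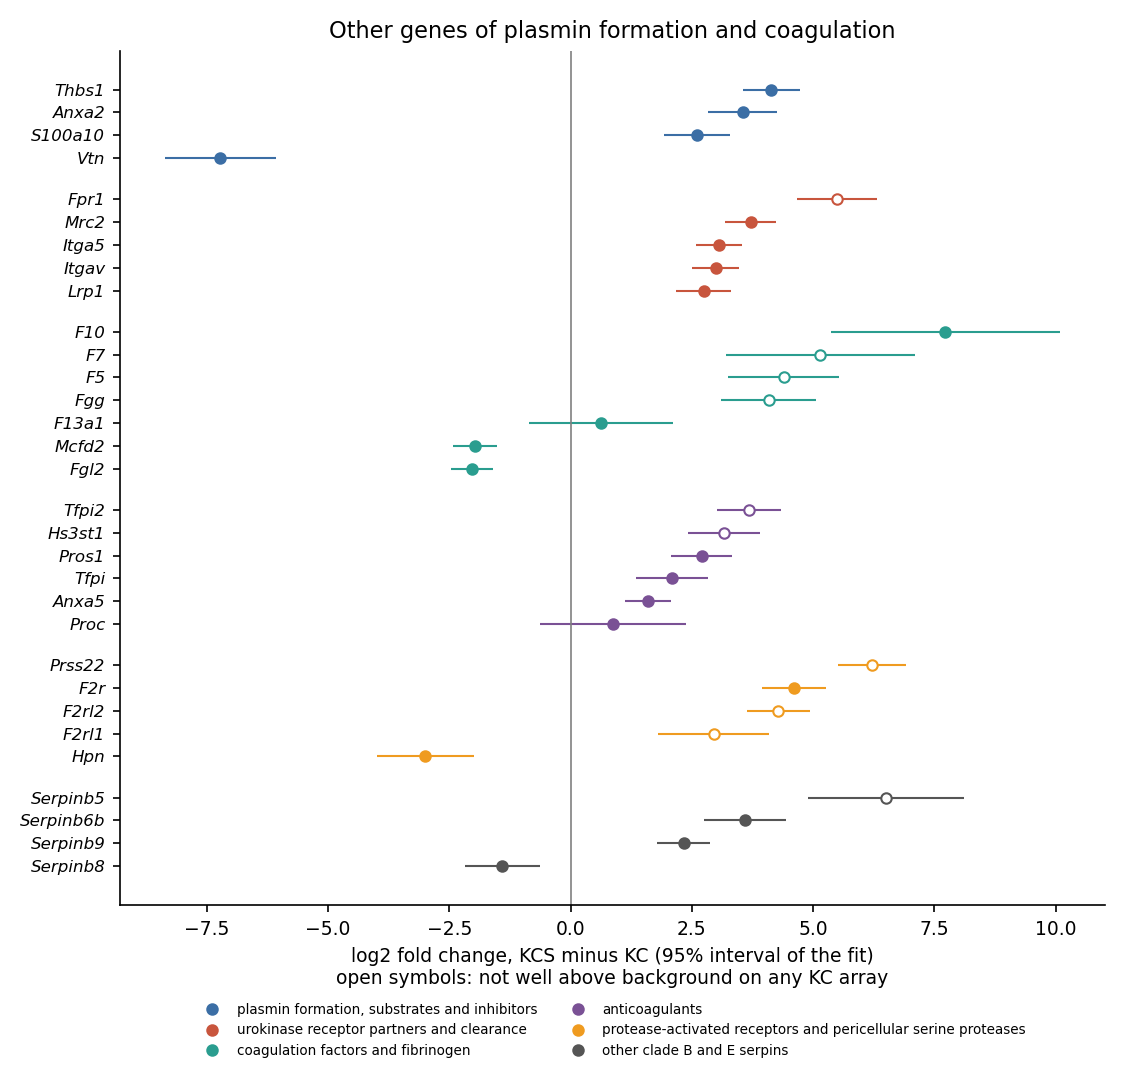
Log2 fold change (KCS minus KC) with its 95% interval for the named genes around plasmin formation and coagulation, coloured by list; open symbols were dim on each KC array and have only a bound. Among filled symbols, F2r stands at 4.60 and Vtn at -7.23, and F10 (7.72) had only 1 of 3 KC arrays above background.

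Genes whose signal followed each of the 8 most closely over the 6 arrays were found by the root mean square of the difference in log2 signal, each gene centred on its own mean, among 12734 or 12735 other genes above background on all arrays. The nearest pairs for the activators were Tgfbi (0.13) and Cotl1 (0.14) for Plat, and Pitpnc1 (0.09) and Slf2 (0.13) for Plau. Plaur was followed at a greater distance by Col8a1 (0.34) and Timp1 (0.38), and Serpine2 by Ccn2 (0.23) and Inhbb (0.24). F3, with its wide KCS spread, had no close match, the nearest being Paqr5 (0.42) and Prss12 (0.55). For Thbd the nearest were Ttc3 (0.08) and Xxylt1 (0.09), and for Procr they were Marcks (0.06) and Plce1 (0.07). Atad2 and Acot9 (0.06 each) lay nearest to Serpinb2, whose KC values are background. These distances are mostly set by the difference between groups, which many genes share, and a smaller change finds more near matches.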

How the data were processed

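The labels' protocols give column-purified total RNA, whole-transcriptome amplification and Cy3 labelling. Per the file headers, Agilent Feature Extraction 12.0.3.1 produced the deposited processed signal, an intensity (scanner units) from which that program had removed background. The deposited value table holds log2 values, which matched the values used here after centring each probe on its median (r = 0.999999 or above, across 36110 probes). It was used as an alternative.

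Log2 of the processed signal minus each array's 75th percentile over non-control probes was used. Spots of a probe were averaged, and 88 to 140 spots marked as outliers per array were left out. No spot was saturated. Probes were named through RefSeq records of GRCm38.p6 (33767 probes), and the files' headers name another build. Rows well above background on at least 3 of 6 arrays were tested, with the probe of highest mean for each gene. Tests used limma 3.58.1 in R 4.3.3 (lmFit, eBayes, no covariates, two-sided) with Benjamini-Hochberg adjustment over 27103 rows. Where a probe was dim on each array of a group, only a bound is given: the brighter group's mean over the mean of, per array, the higher of the lowest signal above background and the probe's own.

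The 8 genes, the pathway and marker lists and the tests were chosen with earlier results of these data known. Named from each pathway list were up to 4 called genes of smallest p-value plus a preset group, and from marker lists the 2 brightest. Some genes selected in this way are not reported here, but remain in the counts and sums of their lists. Slide 1 held replicate 1 of both groups and slide 2 the others. Samples of the same replicate number were not treated as pairs in the main test. Their deviations from the group means correlated at 0.33, 0.04 and 0.14. Unlike numbers were not compared, so these values do not settle whether the samples are paired. In simulated data for KCS against KC (27103 genes, 50 changed at each size), 2% of genes changed by 1 on the log2 scale, 52% of those changed by 2 and 86% of those changed by 4 were called. Few rows were changed there, while 60.3% of the real rows were called, so adjustment was stricter in the simulation. These shares are therefore not the sensitivity of the real comparison. Arrays give no counting depth, and their number limits the precision. Python 3.11.15, numpy 2.4.6, pandas 2.3.3, scipy 1.17.1, matplotlib 3.10.9 and statmod 1.5.0 were used.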

Additional observations from a re-analysis of the deposited data

How the results depend on the processing

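Of 190 tested values of the 8 genes under the alternatives, 189 kept direction and call. The exception was Serpinb2 with normexp background correction (-1.15), where 1 of the 8 was called lower and 7 higher. Requiring signal above background on all arrays left 6 tested and called higher. With the replicate block 8 of the 8 were called higher, and the count of all rows called was 16448, against 16345 without it. The count was 17225 with slide as a block, 31885 without a filter on dim probes and 13400 to 15282 with each sample left out. Spike-in scaling turned Fgl2 to 0.86, Mcfd2 to 0.93, Serpinb8 to 1.49, Csf3r to 1.66 and Vldlr to 0.39. It also turned the listed genes Muc1 to 0.39, Onecut1 to 1.58, Lman1 to 1.67, Mst1 to 0.63, Spint2 to 1.6 and Serpinb1a to 0.38. Normexp turned F2rl1 to -0.14, F2rl3 to -0.85, Hgf to -0.50, Fgb to -0.89, Cav1 to -0.73, Gp9 to -1.36 and Ppbp to -0.39. It also turned the endothelial marker Tek to -0.14 and the neutrophil marker Cxcr2 to -0.35. The cause was not tested. Normexp on the median signals was chosen after seeing the data. The planned normexp on mean signals was not run, since the median signals are what the files used here give. Signal at background in KC limits Serpinb2, the second Plau probe, F7, F5 and Tfpi2 to bounds or less.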
